A study of Mus musculus with 6 samples.

Results

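The serpins are a family of protease inhibitors, and the genes described here are 10 of them: Serpina3f, Serpina3g, Serpina3h, Serpina3i and Serpina3n of the Serpina3 group, and Serpinb1a, Serpinb6a, Serpinb6b, Serpinb9 and Serpinb9b of the intracellular clade B. They were taken by symbol from a table of 55401 genes that holds 68 genes with a serpin symbol, so 58 serpins lie outside the set. The set was proposed with the results of the NFL against control contrast known. Log2 fold changes of members between these groups are therefore given as a description, with a standard error and without a p-value. Where a member is said to be called or not to pass the threshold, nothing is read from that.

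Bulk RNA sequencing had been carried out on mouse CD8a bead-selected T cells from spleen, in 3 samples cultured with supernatant of untreated macrophages (control) and 3 cultured with that of macrophages exposed to NFL, the neurofilament light chain that helps to build the axon skeleton. The macrophages of both groups came from spleen cells selected for CD11b and kept in M-CSF at 50 ng/mL over 7 days, and their filtered supernatant made up 50% of an RPMI-1640 medium with 2% FBS. According to the deposited design, the macrophages received 5 µg/mL NFL for 24 h, prepared from a sciatic nerve lysate by freezing and thawing. The methods of the paper conflict with this, since they give a far lower NFL dose for the co-culture, name a purchased NFL protein for injection and treat nerve lysate as a separate agent. Which preparation and dose these samples received is therefore uncertain, and if it was a lysate, its other contents cannot be told apart from NFL. The labels give no strain, age or sex, and they do not say whether the replicates came from separate mice or cultures, so the p-values printed here measure only the spread between these samples.

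A serpin presents a loop that a protease cuts, and the cut traps protease and inhibitor together in an inactive complex. Serpina3g, also called Spi2A, is a nuclear and cytosolic serpin of leukocytes that blocks cysteine cathepsins released from lysosomes and is known as a target of NF-κB and of interferon-γ. Clade B serpins stay inside the cell, and in T cells they are known for guarding the cytosol against the cell's own granule proteases, above all Serpinb9 against granzyme B.

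The Serpina3 members stand in a row on the plus strand of chromosome 12. The stretch of 250 bases before the transcription start is shown for 4 of them, because Serpina3f and Serpina3g were the members with the largest rises, whereas Serpina3i and Serpina3n, their close copies, were nearly silent. Capitals mark matches to GGGNNNNNCC, a loose form of the κB motif, and to TTCNNNGAA, the GAS motif to which STAT factors bind. Both strands were searched.
Serpina3f: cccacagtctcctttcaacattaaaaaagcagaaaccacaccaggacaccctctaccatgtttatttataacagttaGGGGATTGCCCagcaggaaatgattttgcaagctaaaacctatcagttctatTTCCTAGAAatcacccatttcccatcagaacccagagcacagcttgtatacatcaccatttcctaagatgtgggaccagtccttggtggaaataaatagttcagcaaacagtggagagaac
Serpina3g: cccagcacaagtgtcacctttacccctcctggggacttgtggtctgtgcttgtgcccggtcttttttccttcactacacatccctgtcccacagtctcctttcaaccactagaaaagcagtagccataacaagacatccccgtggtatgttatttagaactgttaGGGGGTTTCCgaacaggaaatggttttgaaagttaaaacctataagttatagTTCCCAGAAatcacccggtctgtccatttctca
Serpina3i: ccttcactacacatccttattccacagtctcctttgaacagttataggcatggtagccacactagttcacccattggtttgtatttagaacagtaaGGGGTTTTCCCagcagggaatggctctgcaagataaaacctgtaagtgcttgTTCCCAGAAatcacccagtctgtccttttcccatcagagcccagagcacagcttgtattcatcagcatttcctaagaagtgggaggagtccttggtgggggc
Serpina3n: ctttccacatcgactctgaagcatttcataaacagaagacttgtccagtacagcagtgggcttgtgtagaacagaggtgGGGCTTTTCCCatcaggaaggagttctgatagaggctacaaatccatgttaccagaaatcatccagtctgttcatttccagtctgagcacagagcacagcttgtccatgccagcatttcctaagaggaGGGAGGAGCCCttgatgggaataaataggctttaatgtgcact
These RefSeq sequences (GRCm38.p6, plus strand) span chr12:104214294-104214543 for Serpina3f, chr12:104235897-104236146 for Serpina3g, chr12:104262872-104263121 for Serpina3i and chr12:104406458-104406707 for Serpina3n. The κB letters began 173 bases before the start in Serpina3f, 85 bases before it in Serpina3g and 154 bases before it in Serpina3i. In Serpina3f and Serpina3i a second κB match overlapped the first by all but 1 base. The GAS letters began 121, 33 and 102 bases before the start in these genes, so the first bases of the motifs lay 52 bases apart in each of the 3. Serpina3n held κB letters at 4 positions, in overlapping pairs, and no GAS match in this window. Serpina3f has a second RefSeq start, whose window spans chr12:104214383-104214632. That window held the GAS letters but no κB match, so the κB position and the distance given for Serpina3f hold for the window shown only.

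These letters are frequent by themselves. Of 32851 mouse promoter windows of this length, 45.8% held the κB letters, 7.02% the GAS letters and 2.66% both. The same order at the same distance of 52 bases was found in 7 windows, namely those of the 3 Serpina3 genes and of Gm31803, Prss56, Scn2a and Tgm1. The distance was read from the members themselves, which are close copies of each other, so its rarity is a description. Serpina3i carried both motifs and had at most 2 counts in a library. Whether any of these motifs is used in these cells was not tested. Promoter windows were found for 8 of the 10 members. Those of Serpinb6b and Serpinb9 held neither motif, that of Serpinb9b held the κB letters, and 1 of the 2 windows of Serpinb6a held the GAS letters.

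Serpina3g had 917, 579 and 903 counts in the control samples and 939, 979 and 1039 counts in the NFL samples. Scaled to the library size (CPM), this was 37.3, 36.3 and 37.0 against 58.3, 56.9 and 58.9. The samples varied by 1.29% in control and 1.73% in NFL (SD over mean). Their counts alone would give 3.61% and 3.19%, so nothing is read from this small spread. The NFL samples lay above the control samples without overlap, with means of 36.9 ± 0.474 CPM in control and 58.0 ± 1.00 CPM in NFL (SD, n = 3 each). Serpina3g was thus 1.57-fold higher in NFL, a log2 fold change of 0.65 with a standard error of 0.058 and a 95% interval of 0.54 to 0.77. It moved only between 0.64 and 0.67 when each sample was left out in turn.

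Serpina3f (chr12:104214544-104221129 in GENCODE M21, GRCm38) is a neighbouring copy expressed far below Serpina3g. It had 82, 57 and 49 counts in control and 106, 101 and 116 in NFL, which gave 3.33, 3.58 and 2.01 CPM against 6.58, 5.87 and 6.57 CPM. The groups did not overlap, and control replicate 3 was the lowest sample. The means were 2.97 ± 0.845 and 6.34 ± 0.408 CPM (SD, n = 3 each), a 2.17-fold rise and a log2 fold change of 1.12 with a standard error of 0.190 (95% interval 0.74 to 1.49). The control samples varied by 28.4% (SD over mean), above the 12.9% that their counts alone would give, whereas the NFL samples varied by 6.43% against 9.64%. Without control replicate 3 the log2 fold change was 0.88, and without any other sample it reached at most 1.25.

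Among all tested genes ranked from the largest rise, Serpina3f stood at position 29 and Serpina3g at position 217 of 14082. Their ratio is described for each sample, and its difference between the groups was not tested. Serpina3f made up 8.21%, 8.96% and 5.15% of the summed counts of both genes in control and 10.1%, 9.35% and 10.04% in NFL. These ranges did not overlap, but the Wilson 95% intervals of control replicates 1 and 2, 6.66 to 10.1% and 6.98 to 11.4%, reached into those of the NFL samples. Control replicate 3, at 3.92 to 6.74%, lay below the NFL intervals, the lowest of which began at 7.76%. Such intervals cover counting error only.

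The other Serpina3 members were barely detected. Serpina3n, a secreted inhibitor of granzyme B and leukocyte elastase (chr12:104406729-104414329), had 1, 0 and 0 counts in control and 1, 0 and 1 in NFL. Serpina3i (chr12:104263122-104269372) had 0, 0 and 1 against 1, 0 and 2 counts. Serpina3h (chr12:104247905-104253669), annotated as a transcribed pseudogene, had 0, 0 and 0 against 2, 1 and 0 counts. None of the 3 exceeded 3 counts in a library, the floor used here, which corresponds to 0.122 to 0.189 CPM at these depths, so no fold is given. The 9 Serpina3 genes outside the set reached at most 15 counts in a library, in Serpina3k. Serpina3g alone took 91.0 to 94.8% of the Serpina3 members' counts in control and 89.5 to 90.6% in NFL.

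Because the copies resemble each other, reads may have been lost or shared between them, and how the counting treated such reads is not given in the sources used here. The coding sequences of Serpina3f and Serpina3g were 87.4% identical where they aligned. The Serpina3g coding sequence used had 747 bases against 1338 in Serpina3f, so a part of Serpina3f had no counterpart in this comparison. The full transcripts shared longer stretches, since 20 stretches of 100 bases in Serpina3f also occurred in Serpina3g. Within the coding sequences compared, the longest identical run had 56 bases and began at coding position 899 of Serpina3f. It is shown because a read inside it could come from either gene.
Serpina3f and Serpina3g: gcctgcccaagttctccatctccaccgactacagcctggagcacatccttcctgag
The coding sequences of Serpina3f and Serpina3i, of 1338 and 1227 bases, had 91.3% identity with an identical run of 132 bases. These pairs were compared over unlike parts, so the values do not tell which copy is closer. Of stretches of 50 transcript bases, Serpina3f shared 138 with Serpina3g and 90 with Serpina3i. Of all stretches of 50 transcript bases, 10.6% in Serpina3f and 15.5% in Serpina3g also occurred in another gene. At 100 bases the shares were 3.397% and 3.49%, and at 150 bases they were 0. When the 5 Serpina3 members were summed to 1 gene and the table was fitted again, the log2 fold change was 0.70 with a standard error of 0.056.

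Hepatocytes express many Serpina3 genes, so hepatocyte markers were read beside them. The summed level of 5 markers, Alb, Apoa1, Ttr, Serpina1a and Serpina1b, was 0.894, 5.96 and 0.942 CPM in control and 1.12, 1.16 and 1.02 CPM in NFL. Control replicate 2 stood above the rest, mainly through Alb with 4.64 CPM. The Serpina3g level of that sample was the lowest of the 6, but its Serpina3f level, 3.58 CPM, was the highest of the control samples. Without control replicate 2 the log2 fold changes stayed within the ranges given above, with Serpina3f at the upper end, 1.25. The part of hepatocyte transcripts in these levels was not tested. None of these markers passed the test between the groups, and only Alb had enough counts to be tested (adjusted p = 0.170, edgeR).

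Serpinb1a, an inhibitor of neutrophil elastase, cathepsin G and proteinase 3 (chr13:32842092-32851185, minus strand), was the most abundant member and moved the other way. Its level was 110.4, 104.4 and 107.0 CPM in control and 92.2, 90.2 and 88.4 CPM in NFL, from 1485 to 2716 counts per sample. The NFL samples lay below the control samples without overlap, with means of 107.3 ± 3.01 and 90.3 ± 1.95 CPM (SD, n = 3 each). The log2 fold change was -0.25 with a standard error of 0.042 (95% interval -0.33 to -0.17), a level 0.840 times that of control, and it ranged from -0.27 to -0.23 when each sample was left out.

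**Figure D1:**
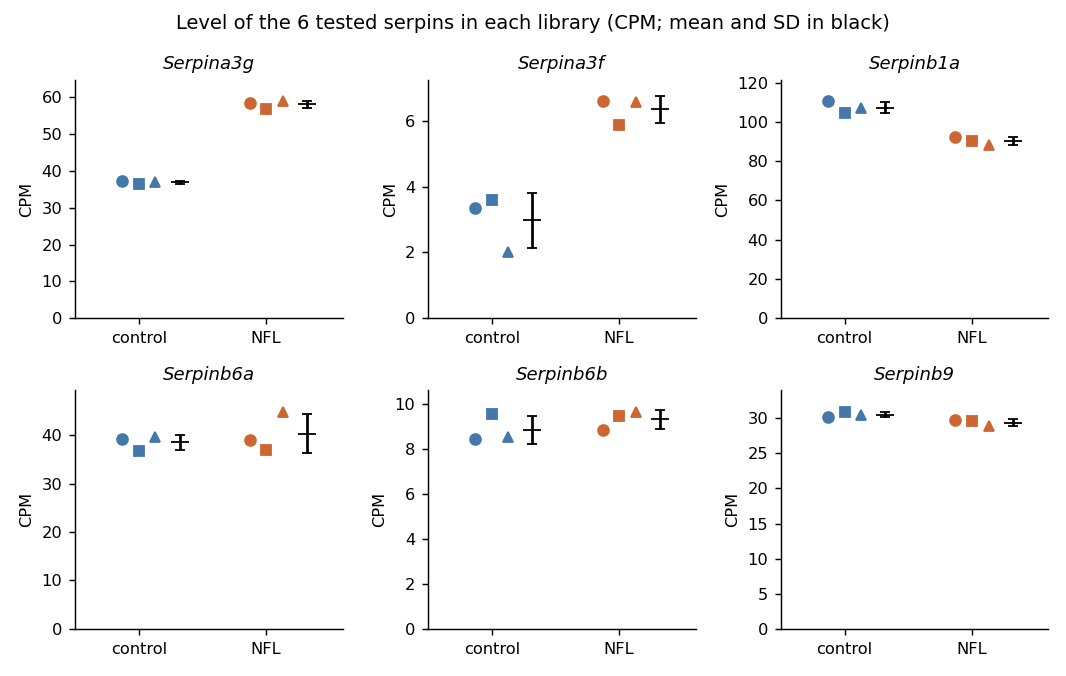
CPM (scaled counts, axis from 0) of the 6 tested members in each sample, with circles, squares and triangles for replicates 1, 2 and 3, and the mean and SD of each group in black. Serpina3g and Serpina3f lie higher in all 3 NFL samples, Serpinb1a lies lower in all 3, and Serpinb6a, Serpinb6b and Serpinb9 stay close to their control level.

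The opposite shifts changed the balance within the family. Each Serpina3g count was accompanied by 2.96, 2.87 and 2.90 Serpinb1a counts in control and by 1.58, 1.58 and 1.50 in NFL. Serpinb1a took 34.5 to 36.5% of all serpin counts in control and 28.1 to 30.1% in NFL, whereas Serpina3g took 12.02 to 12.4% and 18.7 to 19.1%. The sum over all 68 serpin genes lay at 300.3 to 304.1 CPM in control and 300.9 to 311.4 CPM in NFL, so these ranges overlapped while the shares of Serpinb1a and Serpina3g did not. The 10 members together made up 73.3 to 76.8% of the serpin counts in the 6 samples.

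**Figure D2:**
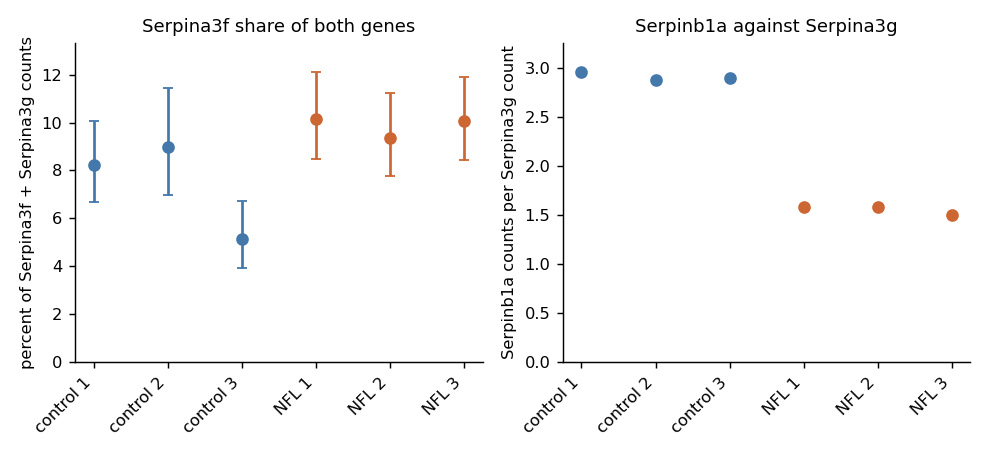
Left, share of Serpina3f in the summed counts of Serpina3f and Serpina3g (percent, bars: Wilson 95% interval) in each sample. Right, Serpinb1a counts per Serpina3g count in each sample (no error bars), which lie at 2.87 to 2.96 in control and at 1.50 to 1.58 in NFL.

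Serpinb9, the inhibitor of granzyme B (chr13:33003250-33017957), had 30.2, 30.9 and 30.5 CPM in control and 29.7, 29.6 and 28.8 CPM in NFL. All NFL samples lay below all control samples, yet the distance was small, with means of 30.5 ± 0.363 and 29.4 ± 0.485 CPM (SD, n = 3 each). The log2 fold change of -0.05 had a standard error of 0.071 and a 95% interval of -0.19 to 0.09, so a change of either sign up to these bounds was not distinguishable from none.

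Serpinb9b (chr13:33027416-33041884), a close copy with 86.3% coding identity to Serpinb9, was near the floor. It had 7, 5 and 5 counts in control and 1, 0 and 1 in NFL, and each control sample was above each NFL sample. Pooled over the samples, 17 counts in control stood against 2 in NFL, a ratio of 0.149 per total count with an exact 95% interval of 0.0167 to 0.626 for counting error only. Serpinb9b was too low for the test, and in a fit without the filter on low counts its log2 fold change was -2.57 with a standard error of 1.21, a value that depends on the prior count and did not pass the threshold. Summed with Serpinb9 it gave a log2 fold change of -0.06 (standard error 0.071).

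Serpinb6a, an inhibitor of cathepsin G and other serine proteases (chr13:33917918-34002794, minus strand), had 39.2, 36.7 and 39.7 CPM in control and 39.0, 37.0 and 44.7 CPM in NFL. The groups overlapped, and NFL replicate 3 was the highest sample. The means were 38.5 ± 1.59 and 40.2 ± 4.03 CPM (SD, n = 3 each), and the log2 fold change of 0.06 (standard error 0.067, 95% interval -0.07 to 0.19) turned to -0.024 without that sample. Its annotated exons overlap Nqo2, Ripk1 and 1110046J04Rik on the other strand, and 15.96% of its 150-base stretches occurred in those genes. Ripk1 was the most abundant of them at 105.3 CPM in control and 102.8 CPM in NFL, and none of the 3 passed the test. Whether the counting used strand is not given in the sources used here.

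Serpinb6b, a copy with 86.2% coding identity to Serpinb6a (chr13:32965209-32979067), had 8.45, 9.54 and 8.51 CPM in control and 8.82, 9.48 and 9.63 CPM in NFL. The groups overlapped and the log2 fold change was 0.08, with a standard error of 0.124 and a 95% interval of -0.16 to 0.33. Summed with Serpinb6a it gave 0.06 (standard error 0.060).

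In the fit over all 14082 genes that could be tested, 6 of the 10 members passed the filter on low counts. Serpina3f and Serpina3g were called higher and Serpinb1a lower at an adjusted p of 0.05, where 3.47% of all genes were called higher and 3.53% lower. By position, 2 of the 6 had all NFL samples above all control samples and 2 had them below, against 11.5% and 11.2% of all tested genes. Since this contrast was known when the set was made, nothing is read from these counts. The median log2 fold change of the 6 was 0.07, against -0.00099 over all tested genes.

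**Figure D3:**
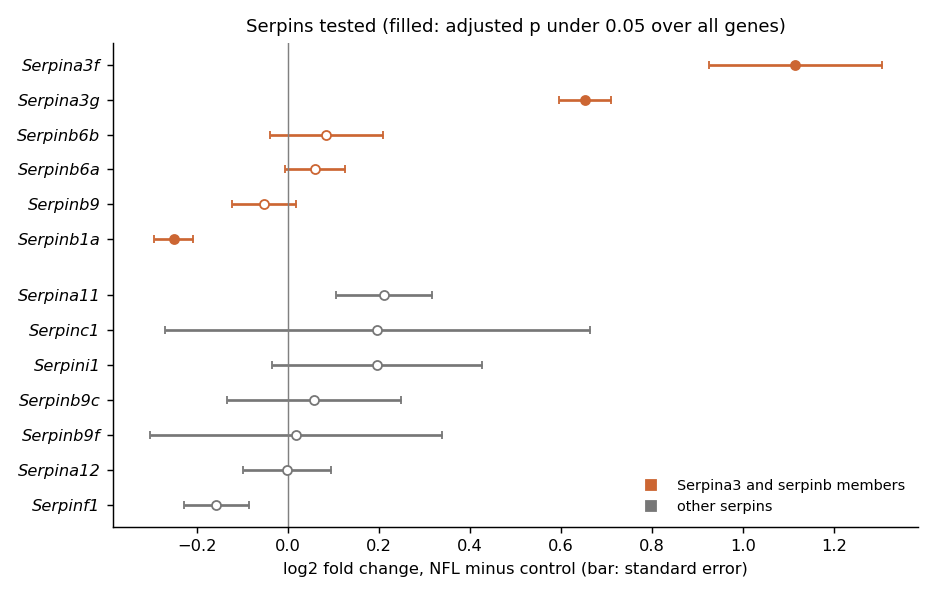
Log2 fold change of NFL against control (bars: standard error) for the 6 tested members in orange and the 7 other tested serpins in grey, with filled points for genes past an adjusted p of 0.05 over all genes. Serpina3f at 1.12 and Serpina3g at 0.65 lie to the right, Serpinb1a at -0.25 lies to the left, and the other serpins are open points between -0.16 and 0.21.

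Compared per kilobase of exon, so that genes of different length can be set side by side, the order of levels was Serpinb1a, Serpina3g, Serpinb9, Serpinb6a, Serpinb6b and Serpina3f. The mean over the 6 samples was 42.9 CPM per kilobase for Serpinb1a, 22.5 for Serpina3g, 8.57 for Serpinb9, 7.28 for Serpinb6a, 4.01 for Serpinb6b and 2.03 for Serpina3f. This order was read from the same samples, so it is a description. Of the 5 pairs of neighbours, 4 kept their order in 6 of 6 samples. Serpinb9 was above Serpinb6a in 5 of 6 samples, by 0.24 ± 0.130 on the log2 scale (mean and SD over 6 samples), and in NFL replicate 3 the genes were level, at 8.25 and 8.27 CPM per kilobase. The place of Serpinb6a rested on its length. With its principal transcript of 1654 bases in place of 5409 exon bases its mean was 23.8 CPM per kilobase, above Serpinb9 and close to the mean of 26.3 for Serpina3g. On that length its order with Serpina3g was opposite in the groups. In control Serpinb6a was above, at 23.7, 22.2 and 24.0 CPM per kilobase against 20.7, 20.2 and 20.5 for Serpina3g. In NFL it was below, at 23.6, 22.4 and 27.1 against 32.4, 31.6 and 32.6. On the exon length Serpina3g was above Serpinb6a in all 6 samples.

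Of the 58 serpins outside the set, 19 had no count in any sample, 15 had at most 3 counts in a library and 17 more were too low for the test. The remaining 7 were tested and 0 were called by edgeR, where 3.47% of all genes were called higher and 3.53% lower. Below an unadjusted p of 0.05 lay 1 of the 7, against 2711 of all 14082 genes. DESeq2 and limma-voom also called 0. Serpinf1, which encodes the secreted factor PEDF and does not act as a protease inhibitor, was the most abundant, with 33.9 ± 1.59 CPM in control and 30.3 ± 2.42 CPM in NFL (log2 fold change -0.16, adjusted p = 0.202, edgeR). Serpina12, which encodes vaspin, was at 17.0 ± 2.25 and 16.8 ± 0.191 CPM. Serpina11 was at 11.4 ± 0.361 and 13.3 ± 0.415 CPM (log2 fold change 0.21, adjusted p = 0.266, edgeR).

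The proteases listed beside these inhibitors, not all of them known targets, and their granule partners did not move together. Of 29 granzymes, cathepsins and partners of the granule, 19 were tested, 3 rose and 5 fell at an adjusted p of 0.05 (edgeR), beside 3.47% and 3.53% of all genes, and their median log2 fold change was -0.07 against -0.00099 over all genes. The granzymes Gzme, Gzmd and Gzmg, which lie in 1 cluster of near-identical genes and may share reads, rose by 0.37, 0.32 and 0.30 on the log2 scale (adjusted p = 3.3e-07, 7.1e-10 and 3.6e-06, edgeR). The tryptase granzymes Gzmk and Gzma fell by 0.58 and 0.45 (adjusted p = 3.6e-10 and 1.1e-13, edgeR). Gzmb, the protease that Serpinb9 inhibits, was low, at 2.54 ± 0.399 CPM in control and 2.15 ± 0.321 CPM in NFL (adjusted p = 0.682, edgeR).

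Of the cathepsins, Serpina3g is known to block the cysteine proteases when they leak from lysosomes into the cytosol. Ctsz was the most abundant cathepsin, with 388.6 ± 7.43 CPM in control and 413.7 ± 11.6 CPM in NFL (log2 fold change 0.09, adjusted p = 0.0539, edgeR). Ctsb, the cathepsin most often named with Serpina3g, was at 252.2 ± 9.82 and 247.6 ± 5.57 CPM (adjusted p = 0.721, edgeR). Ctsw, a cathepsin of cytotoxic lymphocytes, fell by 0.56 and the aspartic protease Ctsd by 0.19 (adjusted p = 5.6e-05 and 0.00487, edgeR). Srgn, the proteoglycan core that holds granule proteases, fell by 0.18, from 328.3 ± 16.7 to 291.0 ± 6.002 CPM (adjusted p = 1.7e-04, edgeR). Ctsg, a target of Serpinb1a and Serpinb6a, had 23.8 ± 0.860 and 22.7 ± 2.50 CPM (adjusted p = 0.717, edgeR).

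Of 30 genes listed as inhibitors that are no serpins, 29 were in the table and 9 were tested. By edgeR 0 were higher and 2 lower, beside 3.47% and 3.53% of all genes. Below an unadjusted p of 0.05 lay 5 of the 9, and under 5 of the 17 alternatives 1 inhibitor was called higher. Itih5, a heavy chain of inter-alpha-trypsin inhibitor, fell by 0.26, and Anxa2, the phospholipid-binding annexin A2, by 0.14 (adjusted p = 0.00439 and 0.0367, edgeR). Both count as inhibitors by their place in this list only, and whether they inhibit a protease in these cells was not tested. The most abundant were Cst7, or cystatin F, a cathepsin inhibitor of cytotoxic cells, at 175.1 ± 12.7 CPM in control and 176.5 ± 3.11 CPM in NFL, the calpain inhibitor Cast at 143.6 ± 4.61 and 134.9 ± 7.43 CPM, and Anxa2 at 96.3 ± 4.74 and 87.3 ± 1.35 CPM.

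**Figure D4:**
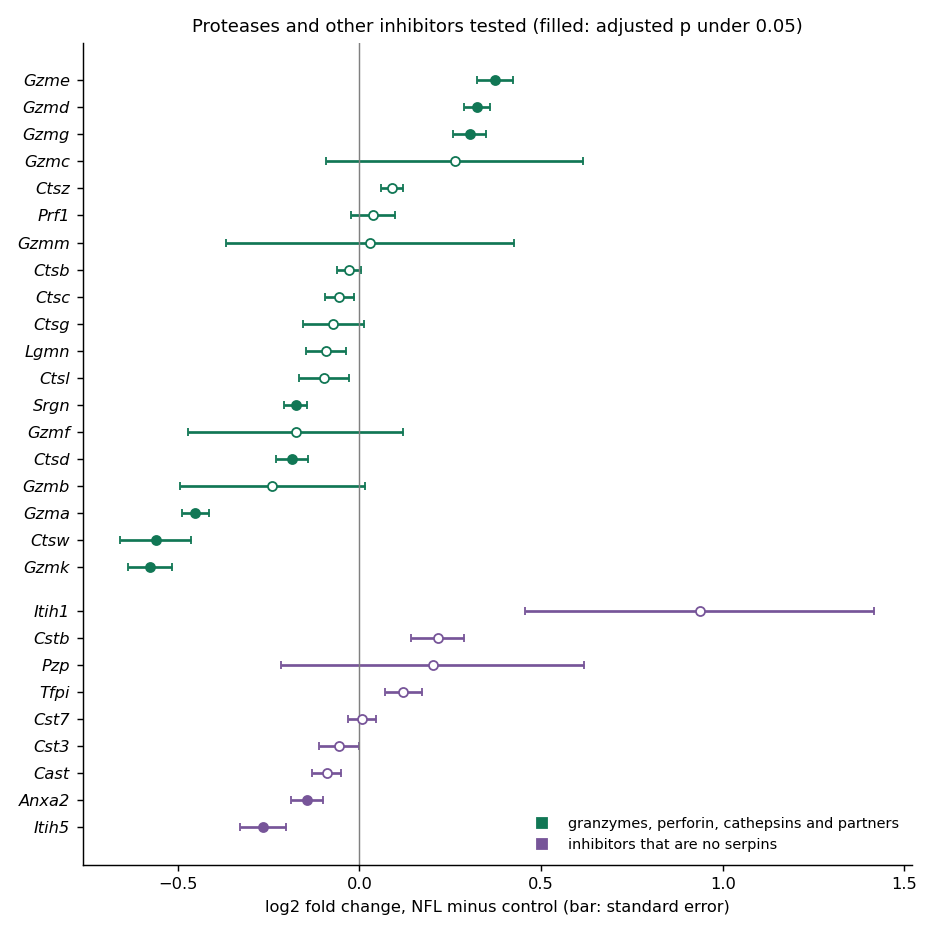
Log2 fold change of NFL against control (bars: standard error) for the 19 tested proteases and partners in green and the 9 tested genes listed as inhibitors that are no serpins in purple, with filled points past an adjusted p of 0.05 over all genes. The granzymes Gzme, Gzmd and Gzmg lie at 0.30 to 0.37 while Gzmk, Ctsw and Gzma lie at -0.58 to -0.45.

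The genes whose profile over the 6 samples was most like that of a member were found by the root mean square difference of log2 CPM after centring each gene on its mean. For Serpina3f they were Ccr7, Gdpd5, Relb, Gm23287 and Pigz, with Ccr7 at 0.10 and Pigz at 0.27. For Serpina3g they were Cd74, Lta, Tnip1, Gm5541 and Shroom3, with Cd74 at 0.025, and Cd74 had 86.1 CPM in control and 136 CPM in NFL. For Serpinb6a they were D930016D06Rik, Trmt5, Ccdc163, Calhm2 and Atp5k, with D930016D06Rik at 0.027. For Serpinb9 they were Cbl, Lpin2, Pms1, Kdsr and Kmt5c, with Cbl at 0.0083. The measure covers 6 samples in 2 groups, and a gene that differs between the groups by the same amount comes close by that alone.

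The total count was 15843045 to 24639756 per sample. The T-cell markers Thy1, Cd3e and Cd247 were present at medians of 1641, 53.6 and 44.8 CPM. Lower were Cd3g, Lck and Cd3d, at 7.63, 4.43 and 4.15 CPM. Cd8a and Cd8b1 were low for CD8a-selected cells, at 3.92 and 1.28 CPM, below Cd4 at 25.7 CPM, and Cd2 was at 0. Of 10 T-cell markers 9 were tested and Cd3e fell by 0.28 on the log2 scale (adjusted p = 5.7e-04, edgeR). The summed T-cell levels, mostly Thy1, were 1768 to 1866 CPM in control and 1715 to 1807 CPM in NFL. Macrophage markers summed to 0.188 to 0.325 CPM in control and 0.170 to 0.291 CPM in NFL, with C1qa, C1qb, C1qc, Cd14, Marco and Mrc1 at 0. Of the NK-cell markers, Klrb1c fell by 0.51 (adjusted p = 2.4e-06, edgeR) while Ncr1 and Klrd1 were at 0 and the sum, mostly Eomes, was 440.8 to 482.5 CPM. B-cell markers summed to 11.6 to 14.1 CPM with Ighm and Ms4a1 at 0, neutrophil markers to 4.10 to 5.65 CPM with S100a8, Ngp and Retnlg at 0, and erythroid markers to at most 0.244 CPM with the 4 haemoglobin genes at 0. The part of other cells in the members' differences was not tested, and fewer cells with a transcript and less transcript per cell cannot be told apart in bulk RNA.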

How the data were processed

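RNA of 6 samples of mouse T cells had been sequenced, 3 per group. The authors deposited raw read counts of 55401 genes without normalization, 1 column per sample. The submitters' processing notes name GRCm39, R 4.2.1 and limma 3.54.2, while 54349 versioned identifiers equal those of GENCODE M21 (GRCm38). Coordinates are from M21 and are given only where the version is identical, which it is not for Serpina3g. Aligner, counting program and strand are not given in the sources used here. The number of columns without a sample was 0. Symbols covered 55141 identifiers.

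Statistics were run in R 4.3.3. A filter on low counts, filterByExpr (minimum count 10, minimum total count 15), left 14082 genes, which were scaled by TMM and tested with the quasi-likelihood F test of edgeR 4.0.16, without a replicate block, and p-values were adjusted by Benjamini-Hochberg and called under 0.05. CPM used TMM-scaled library sizes, except for the floor and the sum over all serpin genes, which used total counts. The floor was 3 counts. Intervals of log2 fold changes are 1.96 standard errors wide to each side. Alternatives were other scalings and filters, DESeq2 1.42.0, limma-voom (limma 3.58.1), other thresholds, thinned counts, the replicate number as a block and each sample left out. After seeing the data, DESeq2 without independent filtering and the principal transcript length were added. The fits were tested on simulated counts.

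The members and the gene lists were chosen with earlier results of these data known. The text names the 10 members and, from each list, up to 8 called genes and the 3 of highest mean level, plus the 5 genes most like Serpina3f, Serpina3g, Serpinb6a and Serpinb9 in profile (mean log2 CPM of at least 3, or at least 1 for a member below 3). Ctsg, Gzmb, Serpina3k and the marker genes lie outside that rule. Ctsg and Gzmb were named as known targets after their values were seen. Promoters are from RefSeq (GRCm38.p6). Figures were drawn with matplotlib 3.10.9.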

Additional observations from a re-analysis of the deposited data

How the results depend on the processing

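The table of all genes gave 986 calls. This count was 500 at an adjusted p of 0.01 and 651 with DESeq2 without independent filtering, and it ranged from 508 to 966 when each sample was left out, with 508 without NFL replicate 3 and 616 without NFL replicate 2. Of the members, 2 were called higher and 1 lower under 16 of 17 alternatives. The exception was the DESeq2 Wald test, which called 1 higher because its independent filtering gave Serpina3f no adjusted p. Its log2 fold change there was 1.11, and without that filtering 2 members were called higher. In the reported fit 3.47% of all genes were called higher and 3.53% lower. The members were chosen with this contrast known and the alternatives reuse the same samples. Their calls over the alternatives thus describe the dependence on processing only. Over the alternatives the log2 fold change was 0.88 to 1.25 for Serpina3f, 0.64 to 0.67 for Serpina3g and -0.27 to -0.23 for Serpinb1a. Serpinb6a ranged from -0.024 to 0.12 and turned negative only without NFL replicate 3, as did the sum of Serpinb6a and Serpinb6b, which ranged from -0.0087 to 0.11. Other serpins called stayed at 0 in all 17 alternatives, and calls among the listed proteases and partners ranged from 7 to 9. Of the other inhibitors, 2 were called, against 1 at an adjusted p of 0.01, 1 without the filter on low counts, 1 with the DESeq2 Wald test and 1 with DESeq2 without independent filtering, while 3 were called at an adjusted p of 0.1 and 3 with the replicate block. None was called higher in the reported fit, but 1 was with the replicate block, at an adjusted p of 0.1, with thinned counts, without control replicate 1 and without NFL replicate 2. Leaving out samples gave between 0 and 2, with 0 without NFL replicate 3 and 1 without NFL replicate 1. The cause was not tested. Whether the replicate numbers pair the samples is not known. Same-numbered samples correlated at 0.0115, 0.0148 and 0.00742 in their deviations, and each was highest with its own number. The deviations hold the counting error of every tested gene, so small correlations cannot show that a pairing is absent. With the replicate block 1049 genes were called, and the log2 fold changes were 1.13 for Serpina3f, 0.66 for Serpina3g and -0.25 for Serpinb1a. The 4 untested members are limited by depth: a floor of 3 counts is 0.122 to 0.189 CPM.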
